A study of Mus musculus castaneus and Mus musculus domesticus with 13 samples.

Results

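The comparison set 1 fertilization-derived ESC library against 2 ntESC libraries of the same B6D2F1 background, a female line (F2) and a male line (M3). These 3 libraries were taken from the 13 of the series by strain and cell type as labelled, with no measured value used. An ntESC line is an embryonic stem cell line grown from a cloned blastocyst, which is made by putting the nucleus of a body cell into an enucleated oocyte. The comparison therefore asks how far lines of the same strain differ when the embryo came from nuclear transfer and not from fertilization.

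B6D2F1 is the F1 hybrid of C57BL/6NCrSlc and DBA/2CrSlc mice. The ntESC lines carry the genotype label SCNT and came from peripheral blood leukocyte nuclei moved into B6D2F1 oocytes, and the ESC line carries the label WT. The labels give 1 growth note for all 3: feeder cells, 2i/LIF medium (inhibitors of MEK and GSK3 with leukemia inhibitory factor), 37 °C and 5% CO2. The study's methods state that cells were left on gelatin-coated dishes before RNA extraction so that feeder fibroblasts would settle out. Each line is 1 library, the ESC group has no replicate, and the sex and passage number of the ESC line are not given in the sources used here. Nuclear transfer can therefore not be told apart from anything else that differs between this 1 ESC line and the ntESC lines. The 4 CAST and 4 CASP ntESC lines, from wild-derived castaneus mice, served to show how far lines of 1 strain and 1 derivation differ. They entered the filter and the spread of the test and set the abundance bins. Their levels are also given beside those of ESC, and there the strain differs as well. The libraries held 40957481 (ESC), 38513674 (F2) and 37477779 (M3) counts, and 20588, 20133 and 19957 genes with at least 1 count.

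Mouse ESCs in 2i/LIF medium are held in the naive state, in which Oct3/4, Sox2 and Nanog run the pluripotency network, FGF signalling is blocked and Wnt target genes are derepressed. Imprinted genes are read from only the maternal or only the paternal allele, under DNA methylation marks set in the germ line, and these marks are known to be lost easily in cultured ESCs. MHC class I molecules and interferon-responsive genes are usually low in pluripotent cells, and p53, the stress-responsive tumour suppressor, is abundant in them.

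Core pluripotency factors were present in all 3 libraries. Levels are given in CPM, counts relative to the TMM-scaled library total, in the order ESC, F2, M3. Pou5f1, which encodes Oct3/4, stood at 641, 710 and 728 CPM. Sox2 stood at 251, 327 and 331 CPM, and Nanog at 478, 521 and 489 CPM. The reference gene Canx, a chaperone of the endoplasmic reticulum, was at 885, 783 and 723 CPM. None of the 4 passed the test (adjusted p of 0.395, 0.119, 0.848 and 0.249, edgeR quasi-likelihood test). Y-linked genes summed to 149.5 CPM in the ESC library, 204 in the male line M3 and 0.0263 in the female line F2. The median X-linked gene lay 0.07 (log2) below M3 and 0.37 below F2 in the ESC library.

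The ESC library stood well apart from both ntESC lines, whereas the ntESC lines were close to each other. On CPM + 1, 1888 genes lay at least 2-fold apart between ESC and F2 and 1983 between ESC and M3, against 151 between F2 and M3. Pairs of CAST lines differed at 120 to 585 genes and pairs of CASP lines at 191 to 1031. Both distances of the ESC library thus exceeded every distance between lines within a strain.

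**Figure D1:**
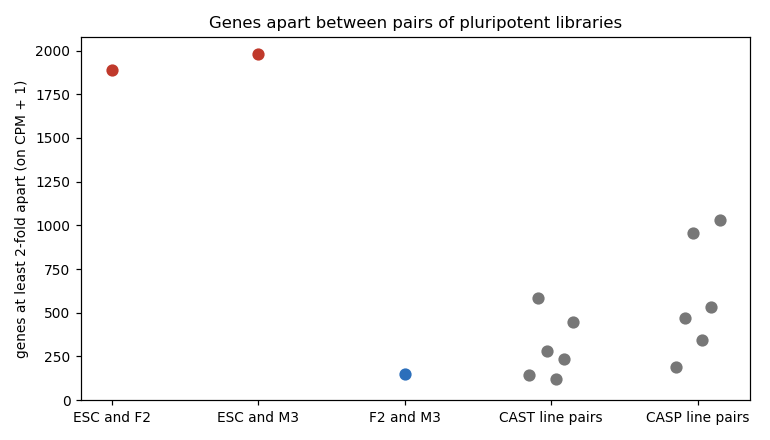
Number of genes at least 2-fold apart on CPM + 1 (vertical axis, from 0) for pairs of pluripotent libraries; each point is 1 pair. The ESC library differed from F2 at 1888 genes and from M3 at 1983, above the F2 and M3 pair (151), all CAST pairs (120 to 585) and all CASP pairs (191 to 1031).

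A gene was called at a Benjamini-Hochberg adjusted p under 0.05 in the edgeR quasi-likelihood fit over the 11 pluripotent libraries. With 1 ESC library, its spread was taken to be that of the ntESC lines. Of 20780 genes tested, 2346 (11.3%) were called, 1198 (5.77%) higher and 1148 (5.52%) lower in ESC. Without scaling beyond library size, the split was 1628 higher and 609 lower, since that scaling shifted the median over all tested genes by 0.14 (log2). A stricter condition asked that the ESC value lie outside both B6D2F1 ntESC values, farther from the nearer one than these are from each other and farther than the full range over the CAST lines and over the CASP lines. It held for 2267 genes (10.9%), 1150 higher (5.53%) and 1117 lower (5.38%). Since the test that chose these genes takes its error from the same lines, this overlap is largely set by the choice. The ESC library lay above all 10 ntESC lines at 4237 genes (20.4%) and below all 10 at 3654 (17.6%).

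Taking each B6D2F1 line by itself left 1 library on each side of the comparison and gave lower counts. With a coefficient for each library, 404 genes (1.94%) differed between ESC and F2, 777 (3.74%) between ESC and M3 and 6 (0.0289%) between F2 and M3. With M3 left out of the data altogether, 397 genes (1.91%) were called, and with F2 left out, 788 (3.8%).

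The direction of change depended on how abundant a gene was. Genes were binned by their mean CPM in the castaneus lines, which do not enter the contrast. Below 1 CPM the median log2 fold change was 0.42, with 2.96% of genes called higher and 0.39% lower. At 100 CPM and above it was −0.25, with 2.45% called higher and 22.77% lower. The medians between these bins fell in order, from 0.30 at 1 to 5 CPM to −0.11 at 20 to 100 CPM. The part of this trend in the results on lists of abundant or scarce genes below was not tested. Protein-coding genes at 5 CPM or more, split into 5 equal groups by exon length, had medians of −0.11 to −0.07, with no order by length.

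Of 31 gene lists, those on MHC class I and interferon and on p53 targets held the largest shares of genes called higher, and the formative pluripotency and amino acid stress lists the largest shares called lower. The median over all genes tested was 0.03.

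**Figure D2:**
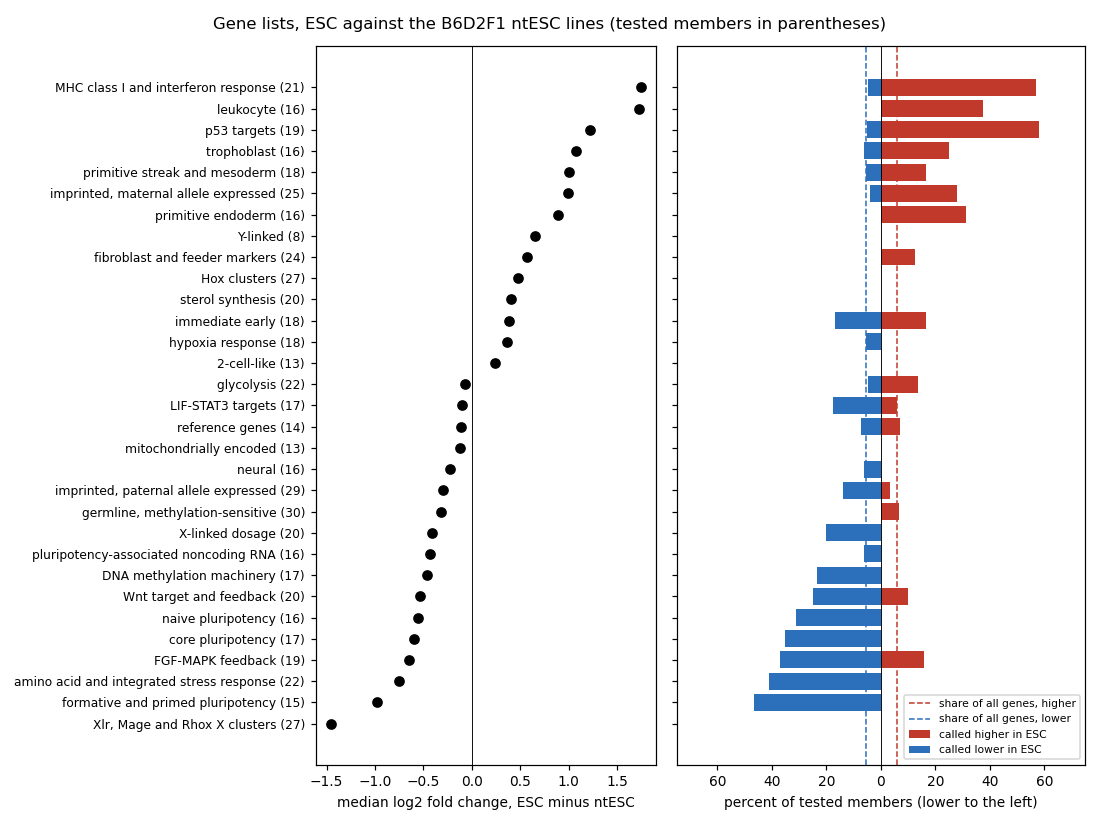
Left, median log2 fold change (ESC minus B6D2F1 ntESC) of the tested members of each list, whose number is in parentheses. Right, percent of tested members called higher (red, to the right) or lower (blue, to the left) in ESC, with the shares over all genes (5.77% and 5.52%) as dashed lines; the MHC class I and interferon list reached 57.14% higher and the formative list 46.67% lower.

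Many genes of the interferon and MHC class I system were higher in the ESC library. Of 21 list members tested, 12 were called higher and 1 lower, and the list's median log2 fold change was 1.75. Of the 12 higher, 11 met the stricter condition, as did 2267 of all 2346 genes called. Of the tested members, called or not, 12 lay above all 10 ntESC lines, against 20.4% of all genes tested. The largest change was in Usp18 (chromosome 6, 121245906 to 121270917 of GRCm38), the protease that removes ISG15 from proteins and dampens the interferon receptor. It stood at 5.57 CPM in ESC, 0.105 in F2 and 0.0816 in M3, and no castaneus line exceeded 0.312. These levels rest on 248, 4 and 3 counts, a ratio of 59.5 with a 95% exact counting interval of 28.5 to 150, which covers counting error only. The fitted log2 fold change was 5.85 ± 1.15 (SE, adjusted p = 0.0117, edgeR).

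Transcription factors of the pathway were among them. Stat2, which carries the type I interferon signal to the nucleus, was at 68.1, 21.2 and 20.8 CPM and Irf7, which drives type I interferon genes, at 4.67, 0.709 and 1.01 CPM, both called. Irf9 and Irf1 were not called, at 16.6, 20.02 and 18.9 CPM and at 22.0, 33.7 and 39.4 CPM.

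The antigen-presenting machinery also rose. Tap1 (chromosome 17, 34187553 to 34197225), a subunit of the transporter that loads peptides into the endoplasmic reticulum, was at 35.9 CPM in ESC, 5.41 in F2 and 2.47 in M3, a log2 fold change of 3.18 ± 0.47 (SE, adjusted p = 0.00593, edgeR). Its partner Tap2 was at 6.89, 1.08 and 0.897 CPM, and the immunoproteasome subunit Psmb9 at 5.14, 0.578 and 0.952 CPM. B2m, the light chain of every class I molecule, was at 33.3, 6.25 and 8.35 CPM. The class I heavy chains H2-K1 (41.6, 14.7 and 18.98 CPM) and H2-D1 (33.9, 7.96 and 8.51 CPM) were called as well, although reads can be split among near-identical class I genes and these 2 are less certain. In all 6 of these genes the ESC value was above every ntESC line.

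Nlrc5, the transactivator of class I genes, departed from this order. At 1.30 CPM in ESC against 0.341 and 0.299 it was called higher, but all castaneus lines lay above the ESC library, at 2.76 to 5.72 CPM. Ifitm3, an antiviral membrane protein, was at 146, 74.7 and 69.7 CPM and lay within the CAST range of 128 to 166 CPM. The 1 member called lower was Ddx58, which encodes the RNA sensor RIG-I, at 16.0, 30.2 and 38.1 CPM. Among the 15 genes of largest rise, chosen across all genes, Igtp (15.9, 0.841 and 1.28 CPM), an interferon-induced GTPase, and Parp10 (18.2, 2.08 and 0.870 CPM), an ADP-ribosyltransferase, were not on the list.

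MEFs, the feeder cell type, expressed the list at a summed 168 CPM, below the 669 CPM of the ESC library. F2 and M3 had 314 and 316 CPM, CAST lines 341 to 393 and CASP lines 233 to 292. The list's direction did not depend on which ntESC line was used, but the calls did. With M3 left out 3 members were called higher, and with F2 left out 4.

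**Figure D3:**
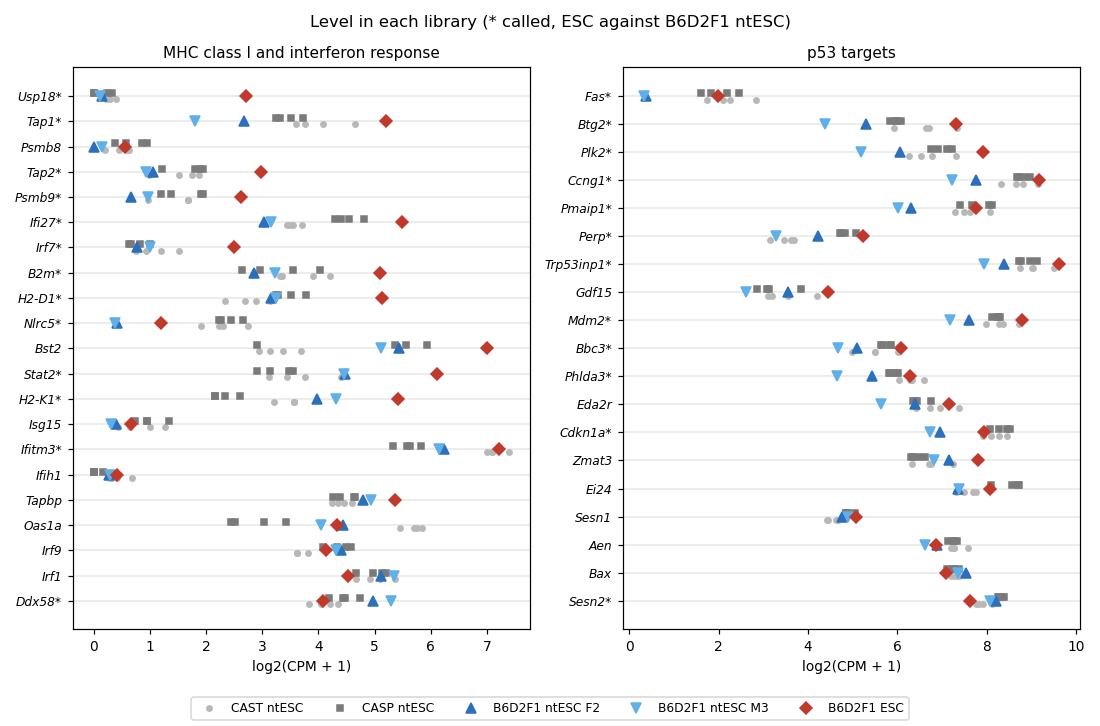
Level of each tested gene of the MHC class I and interferon list (left) and of the p53 target list (right) in each library, as log2(CPM + 1); diamonds are the ESC library, triangles F2 and M3, circles CAST and squares CASP lines, and an asterisk marks a called gene. For genes such as Usp18 (5.57 CPM in ESC, at most 0.312 in any ntESC line) the ESC point stands alone. In 9 of the 11 p53 targets called higher, all 8 castaneus lines lie above F2 and M3, and ESC lies above those 8 lines in 6 of the 11.

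Genes activated by p53 made up another list with many genes higher in the ESC library. Of 19 tested, 11 were called higher and 1 lower, with a median log2 fold change of 1.22. Ccng1 (chromosome 11, 40748552 to 40755311), a cyclin of the p53 feedback loop, was at 577 CPM in ESC, 215 in F2 and 149 in M3. Its log2 fold change was 1.66 ± 0.28 (SE, adjusted p = 0.00663, edgeR). Plk2, a stress-responsive kinase, was at 240, 65.4 and 35.5 CPM, and Btg2, an antiproliferative factor, at 158, 38.2 and 19.7 CPM. The death receptor gene Fas was low throughout, at 2.94, 0.289 and 0.245 CPM, with the largest change of the list (3.45 ± 0.60, SE, adjusted p = 0.00787, edgeR). Mdm2, the ubiquitin ligase that degrades p53, was at 440, 193 and 145 CPM, and Cdkn1a, the cell cycle inhibitor p21, at 244, 123 and 106 CPM. The remaining genes called higher were Pmaip1, Perp, Trp53inp1, Bbc3 and Phlda3, with log2 fold changes of 1.21 to 1.61. Sesn2, a sestrin that is also on the amino acid list, was the member called lower.

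ESC lay above all 10 ntESC lines at 9 of the 19 tested members, 6 of them called, against 20.4% of all genes tested. F2 and M3 tended to lie lowest. In 9 of the 11 genes called higher, all 8 castaneus lines lay above both F2 and M3, and ESC lay above all 8 in 6. Cdkn1a was 1 of those where it did not, with 242 to 353 CPM in CAST and 267 to 366 in CASP. The mean log2(CPM + 1) over the list was 6.96 in ESC, 6.07 in F2, 5.63 in M3, 6.25 to 6.94 in CAST and 6.57 to 6.70 in CASP. F2 was above M3 in all 11 genes. With M3 left out none of the 19 was called by edgeR, although 12 were higher at an unadjusted p under 0.05 and the median stayed at 0.99. With F2 left out 10 were called higher.

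The gene of p53 itself went the other way. Trp53 (chromosome 11, 69580359 to 69591873), named after its values were seen, was at 144 CPM in ESC, 293 in F2 and 320 in M3, below all castaneus lines (293 to 437 CPM). Its log2 fold change was −1.09 ± 0.14 (SE, adjusted p = 0.00368, edgeR). Its relative Trp73, also named after its values were seen, was at 31.8, 10.6 and 4.30 CPM, while CAST lines had 100 to 197 CPM and CASP lines 2.49 to 5.03.

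The list of amino acid supply and the integrated stress response holds genes that ATF4 switches on when amino acids run short or translation is impaired. Of 22 tested, 9 were called lower in ESC, 13 not called and none called higher in the edgeR fit over the 11 libraries. In that fit 0 were higher at an unadjusted p under 0.05, and DESeq2 called 0 higher. The median log2 fold change was −0.75. With only the 3 B6D2F1 libraries, edgeR called 1 member higher and 15 lower. Chac1 (chromosome 2, 119351229 to 119354381), a glutathione-degrading enzyme induced by ATF4, stood at 5.86 CPM in ESC, 33.1 in F2 and 34.8 in M3. No castaneus line was below 23.7 CPM, and the log2 fold change was −2.54 ± 0.26 (SE, adjusted p = 0.0027, edgeR). Slc7a3, an X-linked carrier of arginine and lysine, was at 43.5, 240 and 253 CPM, and the castaneus lines again lay above ESC, from 98.8 CPM. The cystine carrier Slc7a11 was low in all, at 0.965, 3.94 and 4.05 CPM.

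Several enzymes on the list were lower as well. Shmt2, the mitochondrial enzyme that takes 1 carbon from serine, was at 162, 460 and 490 CPM (log2 fold change −1.55 ± 0.18, SE, adjusted p = 0.003, edgeR). Mthfd2, the next step of that pathway, was at 62.9, 162 and 166 CPM, Psat1 of serine synthesis at 231, 556 and 578 CPM and Asns, asparagine synthetase, at 327, 739 and 721 CPM. Atf4 itself was at 335, 532 and 570 CPM, below all 10 ntESC lines. For Shmt2, Psat1 and Asns the B6D2F1 ntESC lines were above every castaneus line. Ddit3 (35.4, 18.99 and 17.2 CPM) and Atf3 (27.2, 20.6 and 15.4 CPM), stress factors downstream of ATF4, were not called. With M3 left out 4 members were called lower, and with F2 left out 6.

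Some targets and feedback genes of Wnt signalling were lower. Of 20 tested, 5 were called lower, 2 higher and 13 neither way, with a median of −0.53. Lef1 (chromosome 3, 131110471 to 131224356), a transcription factor that binds β-catenin and is itself a target, was at 6.33 CPM in ESC against 36.0 in F2 and 40.6 in M3. All castaneus lines lay at 37.3 to 75.8 CPM, and the log2 fold change was −2.60 ± 0.38 (SE, adjusted p = 0.00593, edgeR). Sp5, a transcription factor and target, was at 2.29, 14.3 and 12.1 CPM. The feedback inhibitors Axin2 (18.8, 48.7 and 58.5 CPM) and Znrf3 (12.9, 32.7 and 34.7 CPM) were called lower, as was Ccnd1, cyclin D1, at 102, 185 and 236 CPM. ESC was below all 10 ntESC lines in each of these 5 genes, although Ccnd1 did not meet the stricter condition.

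Ascl2, a target and an imprinted gene, went the other way at 8.46, 1.92 and 1.82 CPM, as did the inhibitor Rnf43 at 1.75, 0.368 and 0.625 CPM. Notum, a secreted inhibitor, had the largest difference but was not called (4.04, 29.0 and 25.9 CPM, adjusted p = 0.0546, edgeR), and castaneus lines had less than the ESC library. Leaving M3 out left 2 members called lower and 1 higher, and leaving F2 out 4 and 1.

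FGF-MAPK feedback genes, read-outs of the cascade that 2i blocks, fell in larger number than they rose. Of 19 tested, 7 were called lower and 3 higher, with a median of −0.65. The lower ones included Egr1, an immediate early factor (18.6, 61.4 and 48.1 CPM), the ETS factors Etv1 (4.29, 14.4 and 21.9 CPM) and Etv5 (296, 493 and 545 CPM), and the inhibitor Spred2 (54.0, 111 and 116 CPM). The higher ones were Fos (136, 35.4 and 32.0 CPM), another immediate early factor, Lif (30.8, 11.1 and 7.34 CPM), the cytokine also supplied in the medium, and Phlda1 (13.3, 4.70 and 4.16 CPM). Leaving M3 out left 1 call in each direction, and leaving F2 out 4 lower and 2 higher.

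Formative and primed markers rise as cells leave the naive state. Of 15 tested, 7 were called lower in ESC and none higher by edgeR (0 at an unadjusted p under 0.05 and 0 by DESeq2), with a median of −0.98. Otx2, the transcription factor of the exit from naive pluripotency, was at 3.90, 16.6 and 17.9 CPM. Dnmt3b, a de novo DNA methyltransferase, was at 39.1 CPM in ESC, 162 in F2 and 183 in M3, below the lowest castaneus line at 103 CPM. Its log2 fold change was −2.14 ± 0.39 (SE, adjusted p = 0.00883, edgeR). Zic2, a zinc finger factor, was at 57.6, 119 and 136 CPM. Without M3, 2 were called lower and without F2, 4.

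**Figure D4:**
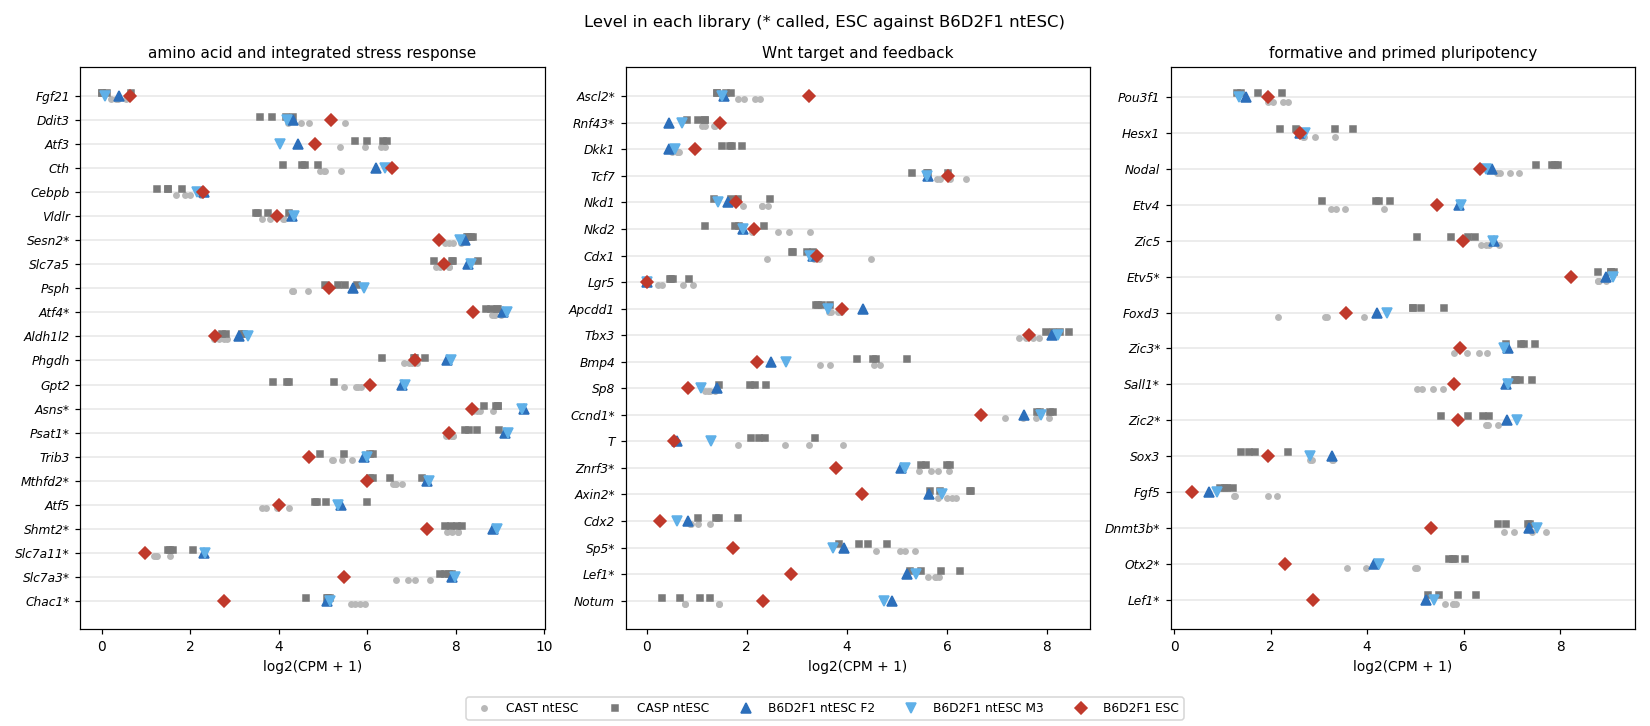
Level of each tested gene of the amino acid and integrated stress response list (left), the Wnt target and feedback list (middle) and the formative and primed pluripotency list (right) in each library, as log2(CPM + 1); symbols as for the interferon and p53 plot, with asterisks for called genes. Chac1, Slc7a3, Lef1, Sp5, Otx2 and Dnmt3b lie to the left of all 10 ntESC lines in ESC (5.86 CPM for Chac1 against at least 23.7).

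Several genes of the pluripotency network were also lower. In the edgeR fit over the 11 libraries, none of the core and naive lists was called higher. In that fit 0 were higher at an unadjusted p under 0.05, and DESeq2 called 0 higher. With only the 3 B6D2F1 libraries, edgeR called 1 core gene higher and 11 lower, and 1 naive gene higher and 10 lower. Over the 11 libraries, 6 of 17 members of the core list (35.29%) were called lower, with a median of −0.59. L1td1, an RNA-binding protein of pluripotent cells, was at 117, 371 and 420 CPM. Utf1 (54.3, 111 and 121 CPM), Trim71 (157, 306 and 336 CPM), Sall4 (179, 320 and 369 CPM) and the gene pair Dppa2 (33.3, 80.7 and 85.6 CPM) and Dppa4 (53.6, 101 and 116 CPM) were all below all 10 ntESC lines. In the naive list 5 of 16 (31.25%) were called lower, with a median of −0.56. Gbx2, a homeobox factor of self-renewal, was at 1.77, 16.0 and 16.9 CPM, and the nuclear receptor Esrrb at 500, 756 and 797 CPM. Klf4, a factor of naive cells, was at 404, 310 and 337 CPM and was not called. In the core list 2 were called with M3 left out and 5 with F2 left out, and in the naive list 2 and 3.

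The DNA methylation machinery held 4 genes called lower of 17 (23.53%), against 5.52% of all genes tested. Besides Dnmt3b these were Trim28, the corepressor that guards imprints (606, 1403 and 1563 CPM), the NuRD subunit Mbd3 (55.9, 116 and 120 CPM) and the demethylating enzyme Tet1 (272, 480 and 541 CPM). Dnmt1, the maintenance methyltransferase, was at 425, 514 and 547 CPM and was not called. Without M3, 2 of the 4 calls were left, and without F2 4. These lists hold mostly abundant genes, and 22.77% of all tested genes at 100 CPM and above were called lower. The share of the DNA methylation list was near that, and those of the core (35.29%) and naive (31.25%) lists were above it.

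Imprinted genes moved both ways, with the maternally expressed genes higher on balance. Of 25 maternally expressed genes tested, 7 were called higher and 1 lower, with a median of 0.99. Of the 25, 10 lay above all 10 ntESC lines, against 20.4% of all genes tested. Of the 7 called higher, Cdkn1c, Osbpl5, Slc22a18, Cd81 and Ascl2 lie on chromosome 7, in the cluster controlled by Kcnq1ot1. Slc22a18 (143473736 to 143499334), a membrane transporter, was at 9.87, 1.76 and 1.55 CPM, and its log2 fold change was 2.57 ± 0.45 (SE, adjusted p = 0.00809, edgeR). Its neighbour Cdkn1c (143458339 to 143461050), the growth-limiting cell cycle inhibitor p57, was at 12.8, 1.18 and 1.69 CPM, and a CASP line reached 14.0. It did not meet the stricter condition, since the CASP lines ranged over 2.43 (log2) and ESC lay 2.36 from the nearer B6D2F1 line. Osbpl5 was at 4.85, 0.735 and 0.435 CPM and the tetraspanin Cd81 at 484, 215 and 167 CPM. Zim1, a zinc finger gene beside Peg3, was at 4.29, 2.02 and 1.71 CPM and only just passed the test (adjusted p = 0.0498, edgeR). The paternally expressed Kcnq1ot1, the RNA that silences this cluster on the paternal chromosome, was at 17.0, 12.9 and 12.8 CPM and was not called (adjusted p = 0.713, edgeR).

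Of 29 paternally expressed genes tested, 4 were called lower and 1 higher, with a median of −0.30. Mest (chromosome 6, 30723547 to 30748465), an imprinted growth regulator, was at 14.97, 94.9 and 87.3 CPM, a log2 fold change of −2.61 ± 0.59 (SE, adjusted p = 0.0202, edgeR), and the lowest castaneus line had 39.4 CPM. Zdbf2 (51.4, 135 and 140 CPM), Snrpn (67.8, 175 and 179 CPM) and Peg12 (1.93, 9.48 and 5.71 CPM) were lower, and the amino acid carrier Slc38a4 (440, 235 and 201 CPM) was higher. The noncoding RNAs Meg3 (131, 212 and 183 CPM) and Rian of the chromosome 12 cluster were not called, in a fit where CASP lines alone ran from 23.4 to 482 CPM of Meg3. Igf2 was at 8.86, 8.90 and 10.03 CPM. Without M3, 1 maternally expressed gene was called higher and no paternally expressed gene either way, where 1 was higher and 5 lower at an unadjusted p under 0.05 by edgeR. With F2 left out, 3 maternally expressed genes were higher, and 1 paternally expressed gene was called in each direction.

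**Figure D5:**
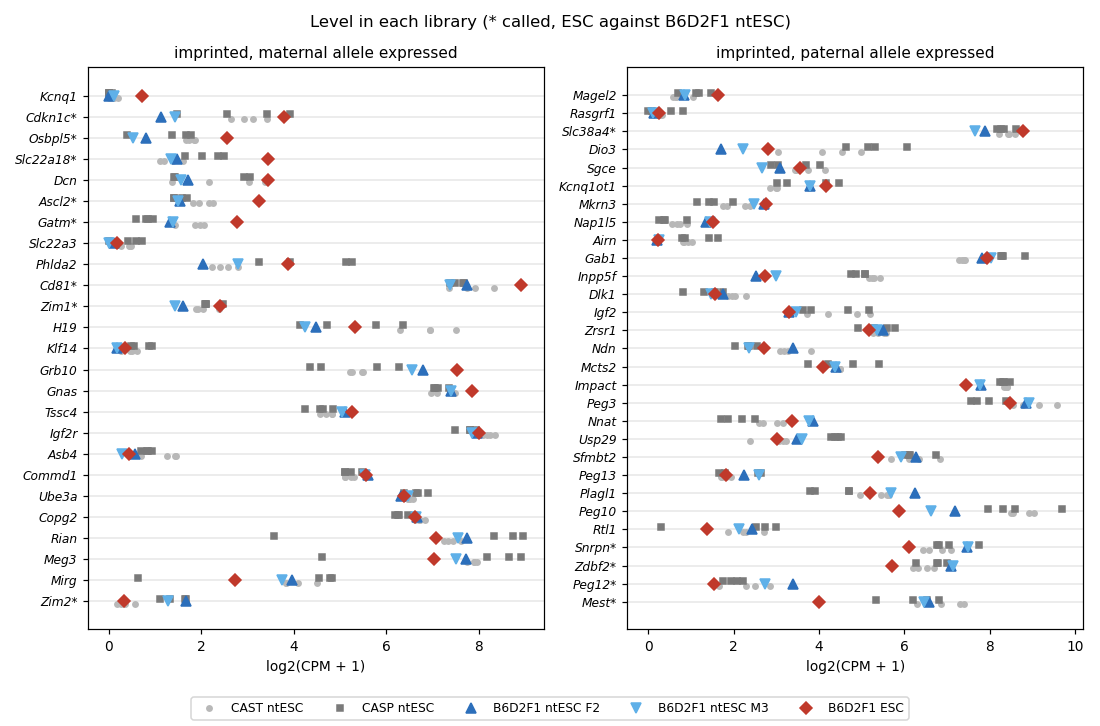
Level of each tested imprinted gene expressed from the maternal (left) or the paternal (right) allele in each library, as log2(CPM + 1); symbols as for the interferon and p53 plot, with asterisks for called genes. Slc22a18, Ascl2, Gatm and Cd81 lie above all 10 ntESC lines in ESC, and Mest (14.97 CPM against at least 39.4) below them.

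Genes of other cell types were read for differentiated or feeder cells. Across all genes tested, 5.77% were called higher and 5.52% lower. The primitive endoderm list had 5 of 16 called higher, with a median of 0.89, and 1 without M3 and 3 without F2. These were basement membrane and matrix genes, Sparc (560, 249 and 225 CPM), Lamb1 (109, 36.1 and 41.9 CPM), Col4a1 (63.3, 35.0 and 33.1 CPM) and Col4a2 (51.4, 21.7 and 17.5 CPM), with the endocytic receptor gene Amn (4.13, 0.867 and 0.462 CPM). All castaneus lines exceeded the ESC level of Col4a1, and CAST lines that of Lamb1. The defining endoderm factors Gata6 (4.17, 2.05 and 1.47 CPM), Gata4 (5.16, 1.55 and 1.77 CPM) and Sox17 (0.741, 0.735 and 0.680 CPM) were not called.

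Fibroblast and feeder markers had 3 of 24 (12.5%) called higher, against 5.77% of all genes tested. They were Mmp2 (28.8, 7.75 and 7.75 CPM), Tagln (10.7, 3.34 and 3.34 CPM) and Pdgfrb (6.78, 1.63 and 2.72 CPM). The summed level of the list was 2929 CPM in ESC, 2415 in F2, 2509 in M3, 1909 to 2309 in CAST, 1368 to 2038 in CASP and 21369 in MEF. Fn1, fibronectin, made up 2445 CPM of the ESC sum. No fibroblast marker was called with M3 or F2 left out by edgeR, where 3 were higher at an unadjusted p under 0.05 in each fit. Col4a1, Col4a2, Lamb1 and Sparc were all at 425 CPM or more in MEF, and the part of feeder RNA in their rise was not tested.

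Leukocyte markers, those of the nuclear donors, had 6 of 16 called higher in ESC, which is the line not made from leukocytes. Laptm5, a lysosomal protein, was at 129, 69.4 and 61.8 CPM and Lyz2, lysozyme, at 11.4, 3.05 and 2.28 CPM. The other 4 were at 3.05 CPM or less in ESC, and the count fell to 1 without M3 and to 2 without F2. The list summed to 162 CPM in ESC, 81.6 in F2, 70.6 in M3, 62.7 to 76.7 in CAST and 25.4 to 39.9 in CASP. The granulocyte genes S100a8 and S100a9 were at 0 in all of these libraries, and the pan-leukocyte gene Ptprc was at 0.404 CPM or less in the 3 B6D2F1 lines.

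The trophoblast list had 4 of 16 called higher (Krt7, Krt19, Gata2 and Ascl2) and 1 lower (Tfap2c), and 2 higher and 0 lower without M3 or without F2. With all lines in, the trophoblast shares were 25% higher and 6.25% lower, against 5.77% and 5.52% of all genes tested. Krt19 was at 24.6, 6.51 and 8.67 CPM, below every castaneus line. The trophoblast list summed to 239 CPM in ESC, 336 in F2, 275 in M3, 582 to 833 in CAST and 505 to 1059 in CASP. Its sum was thus lowest in ESC, although its median log2 fold change was 1.07. The primitive streak list had 3 of 18 higher and 1 lower, and 1 higher and 0 lower without M3 or without F2. With all lines in, the streak shares were 16.67% higher and 5.56% lower, the latter near the 5.52% of all genes tested. Wnt3, the ligand that starts the streak, was at 4.82, 0.525 and 0.299 CPM. The streak factor T was at 0.449, 0.525 and 1.44 CPM and was not called. The member called lower was Evx1 (log2 fold change −4.98, adjusted p = 0.0385, edgeR), which did not meet the stricter condition. The streak list summed to 36.4 CPM in ESC, 32.0 in F2, 31.4 in M3, 41.3 to 84.2 in CAST and 68.1 to 80.2 in CASP. In the neural list Tubb3 was the only call of 16 (6.25%), near the 5.52% of all genes tested that were called lower. Tubb3 (chromosome 8, 123411424 to 123422015), a neuronal tubulin, was at 4.94 CPM in ESC, 79.1 in F2 and 83.0 in M3, with all castaneus lines at 15.04 to 32.8 CPM. Its log2 fold change of −4.04 ± 0.54 (SE, adjusted p = 0.00464, edgeR) was the largest fall among the 15 named for it.

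The 15 genes of largest rise were taken from those that met the stricter condition with at least 5 CPM on the higher side, clone-named loci passed over. They had log2 fold changes of 3.46 to 5.85, and 13 of them lay above all 10 ntESC lines, against 20.4% of all genes tested. That place is largely set by the choice of the genes. Erdr1, at the end of the X chromosome, was at 67.3, 2.47 and 1.58 CPM; it has near-identical copies that can share reads, and CASP lines had 9.70 to 22.7 CPM against at most 0.411 in CAST. The muscle intermediate filament gene Des was at 33.1, 2.57 and 3.45 CPM. Nectin4, a cell adhesion molecule, was at 26.2, 1.60 and 0.598 CPM, and Neurod1, a neuronal transcription factor, at 5.70, 0.184 and 0.218 CPM with up to 12.9 in CAST. The 15 of largest fall by the same rule had log2 fold changes of −4.04 to −2.50, and 11 lay below all 10, against 17.6% of all genes tested. Besides Tubb3, Gbx2, Mest, Lef1, Sp5, Chac1 and Slc7a3 they included the neurofilament gene Ina (2.31, 16.9 and 15.6 CPM), the hormone precursor Trh (4.80, 37.6 and 43.8 CPM) and the adaptor gene Shf (1.55, 17.8 and 15.8 CPM). Actb, β-actin, often used as a reference, was among the fallen genes at 1356, 2964 and 2948 CPM (log2 fold change −1.12 ± 0.19, SE, adjusted p = 0.0078, edgeR), below all 10 ntESC lines.

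Of 20 X-linked dosage genes 4 (20%) were called lower, against 5.52% of all genes tested and 22.77% of genes at 100 CPM and above. They were Huwe1 (458, 1053 and 858 CPM), Ddx3x (593, 1098 and 1032 CPM), Atrx and Kdm6a, all below every ntESC line of either sex. The list's median log2 fold change was −0.41, −0.53 without M3 and −0.26 without F2, and fewer members were called in each of these 2 fits. Glycolysis had 3 of 22 higher, led by the lactate dehydrogenase subunit Ldhb (691, 238 and 271 CPM), and 1 lower, none of which was called by edgeR without M3 or without F2, where 4 were higher at an unadjusted p under 0.05 in each fit. Immediate early and stress genes had 3 of 18 higher and 3 lower, with 2 and 3 left without M3 or without F2. With all lines in, the glycolysis shares were 13.64% higher and 4.55% lower, and those of the immediate early list 16.67% each way. Across all genes tested they were 5.77% and 5.52%. The higher immediate early and stress genes were Fos and the heat shock pair Hspa1a (15.4, 4.68 and 4.40 CPM) and Hspa1b, whose near-identical copies can share reads. The lower ones were Egr1, Ier2 (63.5, 159 and 166 CPM), an immediate early gene, and the chaperone gene Hsph1 (121, 296 and 270 CPM). No member was called by edgeR among 13 2-cell-like, 8 Y-linked, 27 Xlr, Mage and Rhox, 13 mitochondrially encoded, 20 sterol synthesis and 27 Hox genes in the fit over the 11 libraries. At an unadjusted p under 0.05 these lists held 6 higher sterol genes, 1 higher Hox gene and 1 lower mitochondrial gene, and DESeq2 called 1 sterol gene higher. With only the 3 B6D2F1 libraries, edgeR called 12 sterol genes higher, 10 Xlr, Mage and Rhox genes lower and 5 mitochondrial genes, 1 higher and 4 lower. With the ESC library set to female in a sex covariate, edgeR called 7 Y-linked genes higher and 2 Xlr, Mage and Rhox genes lower. The Y-linked calls follow from that setting, since these genes summed to 149.5 CPM in ESC and 0.0263 in the female line F2. Each other alternative called at most 1 member of any of these lists. The remaining lists, on LIF-STAT3 targets, methylation-sensitive germline genes, hypoxia, pluripotency-associated noncoding RNA and reference genes, held 1 to 4 calls each.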

How the data were processed

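RNA was sequenced as strand-specific poly(A) libraries read from both ends. The authors used fastp 0.22.0 for trimming, HISAT2 2.2.1 for alignment against GRCm38 and StringTie 2.1.7 after it. They deposited raw counts per gene and log2 normalized values, and the latter were used only in 1 alternative. Symbols came from the deposited table and positions from GENCODE M21, which held 21675 of its 21706 genes. Counts were tested with edgeR 4.0.16 (R 4.3.3): TMM factors, filterByExpr, a quasi-likelihood fit over the 11 pluripotent libraries with a coefficient per group and 7 residual degrees of freedom, and Benjamini-Hochberg adjustment at 0.05. The single ESC library was assumed to vary like the other lines. Replicates are cell lines, so p-values measure spread between lines. SE was derived from the F statistic. The stricter condition and scores used log2(CPM + 1), and scripts were tested on simulated data.

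The 3 libraries and the 31 lists (594 genes, 567 in the table) were chosen with earlier results of these data known. Of the interferon list, 1 gene is not reported here and was left out of the list's counts. Zim1 was moved to the maternally expressed list, and Dppa2 off the noncoding list, after results were seen. Genes named were Pou5f1, Sox2, Nanog, Canx, 15 higher and 15 lower genes of largest change at 5 CPM or more on the higher side, and up to 5 called members per list, or, with none called, that of smallest adjusted p. Other members named serve as examples chosen after their values were seen. Alternatives changed the scaling, filter, tool, threshold, samples, genes, sex covariate and pseudocount. MEF entered only as a marker reference, and CAST fibroblasts only in a fit of all 13 libraries. Depth was 33395162 to 49968894 counts per library, at which 3 counts equal 0.0673 CPM in ESC, 0.0788 in F2 and 0.0816 in M3.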

Additional observations from a re-analysis of the deposited data

Results flagged for a closer look

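Of 62 list means tested in the CAST or CASP lines, 4 had 1 line far from the others, and chance alone gives about 1 in 20. The gap of that line to its nearest neighbour, as a share of the group's range, was above Dixon's 95% critical value for 4 samples in each. The mean log2(CPM + 1) of the DNA methylation machinery was 7.1358 in CASP M5, against 6.9594 to 6.9837 in the other CASP lines and 6.4821 in ESC. That of the Xlr, Mage and Rhox genes was 3.0296 in CAST F2, against 1.5853 to 1.7521 in the other CAST lines and 1.7405 in ESC. That of the Hox genes was 0.3513 in CAST F1, against 0.4722 to 0.4969 in the other CAST lines and 0.5258 in ESC. That of the pluripotency-associated noncoding RNA list was 3.7045 in CASP F6, against 3.3753 to 3.43 in the other CASP lines and 3.6313 in ESC.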

How the results depend on the processing

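The count of 2346 called genes depended most on the B6D2F1 ntESC lines and on the samples that set the spread. Leaving out 1 line at a time gave 397 (without M3) to 3173 called genes, with 788 without F2, and 1629 to 3072 that met the stricter condition (2267 with all lines). This range of the stricter condition covers only fits with a castaneus line left out, since it was not counted without M3 or without F2. With CASP F4 and F6 both left out, the called and stricter counts were 3583 and 3493. With only the 3 B6D2F1 libraries, at 1 residual degree of freedom, they were 6108 and 6034. DESeq2 called 3727 genes. A fold change of at least 2 besides the adjusted p left 1439 called genes, 1360 of them under the stricter condition. On CPM + 5 the genes 2-fold apart fell to 812 (ESC and M3), 747 (ESC and F2) and 41 (F2 and M3). The log2 fold change of Nanog, not called, turned to 0.0624 (adjusted p = 0.892, edgeR) with library size only. The cause of these shifts was not tested. The other alternatives gave 1595 to 3172 called genes, among them leaving out all CAST or all CASP lines, which was chosen after seeing the data. No paired analysis was possible because the ESC group holds 1 library. Differences between ESC and ntESC lines rest on 1 ESC line, and at levels such as that of Usp18 in F2 and M3 the ratio is limited by a handful of counts.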

Other observations

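Some smaller groups were not described above. Among LIF-STAT3 targets, the feedback inhibitor Socs2 was at 47.2 CPM in ESC, 98.9 in F2 and 108 in M3, below all 10 ntESC lines, while its relative Cish was higher at 4.31, 1.497 and 1.25 CPM.

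Genes of germ cells that are usually kept silent by DNA methylation held 2 calls of 30, both higher. That is 6.67%, near the 5.77% called higher among all genes tested, and the list's median log2 fold change was −0.32. Sycp3, of the synaptonemal complex, was at 11.2, 3.89 and 4.92 CPM and Dpep3, a dipeptidase of the testis, at 3.64, 0.473 and 0.761 CPM, and castaneus lines reached 70.8 and 25.9 CPM. In glycolysis, Hk1 was higher (206, 123 and 125 CPM) and Hk2 lower (369, 539 and 503 CPM). All of these calls are from the edgeR quasi-likelihood test.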
